A study of Mus musculus with 12 samples.

Results

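The genes described here encode the enzymes and transporters of glycolysis, of glycogen storage and breakdown, of lactate exchange and of the entry of pyruvate into mitochondria. They were chosen by symbol, through the gene identifier of each row of a count table, and all 34 symbols were found among its 55401 genes. The table holds RNA-seq counts of cells sorted by flow cytometry, which the titles name astrocytes. They came from the brains of CD51-Flp; Rosa-CAG-FSF-tdTomato mice. In these mice a Flp recombinase tied to CD51, the integrin alpha-v chain encoded by Itgav, switches on the red reporter tdTomato. There were 12 libraries in 4 groups of 3: cortex CD51+, cortex CD51-, hippocampus CD51+ and hippocampus CD51-. The CD51+ cells carried tdTomato and GFP, and the CD51- cells carried GFP without tdTomato. All groups share the reporter genotype and the GFP gate, and what drives GFP, the age of the mice and the number of animals behind a library are not given in the sources used here. Nothing in the labels says that the 3 libraries of a group came from separate animals, so p-values measure the spread between these libraries, which may be technical. The library names read G for the titles with CD51+ and GT for the titles with CD51-, letters that might name the classes the other way round, and in that case every difference between the classes below would change sign. CD51+ and CD51- below name libraries by their titles.

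Glycolysis splits glucose into pyruvate, and astrocytes are known for running it at a high rate and for passing on part of the product as lactate. Lactate dehydrogenase interconverts pyruvate and lactate, and monocarboxylate transporters carry lactate across the cell membrane, the exchange known as the astrocyte to neuron lactate shuttle. Astrocytes also hold most of the glycogen of the brain, which glycogen synthase builds and glycogen phosphorylase breaks down. Many of these steps exist as isozymes, encoded by different genes, with different kinetics and control.

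Total counts were 4351897 to 12847183 read pairs per library, and 12113 to 15425 genes had at least 1 count. The 34 genes took 0.385% to 0.870% of the counts in CD51+ libraries and 0.171% to 0.373% in CD51- libraries. Mitochondrial genes took 36.5% to 71.1% of the counts in CD51+ libraries and 20.2% to 38.6% in CD51- libraries, and cortex CD51+ replicate 3 stood apart with 58.4% of its counts in mitochondrial rRNA, against 1.04% to 3.54% in the other libraries. CPM is the count per 1e+06 counts of the TMM-scaled library size. Itgav had 323 to 879 CPM in CD51+ libraries and 223 to 565 CPM in CD51- libraries, ranges that overlap. All 15 pan-astrocyte markers examined were counted in every library.

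Fitted differences were positive for 24 of 33 tested genes in cortex and 27 in hippocampus, led in level by Aldoc, the brain aldolase, while Hk2 and Pfkfb3, the inducible hexokinase and an activator of phosphofructokinase, stood lower. Of the 34 genes, 33 passed the filter on low counts. With the regions averaged, the quasi-likelihood test of edgeR (Benjamini-Hochberg adjusted p under 0.05) called 11 of them higher, against 8.87% of all 12613 genes tested, and 2 lower, against 13.9%. The median log2 fold change was 1.66 for the 33 genes and -0.14 for all genes tested. In cortex 8 were called higher (5.05% of all genes tested) and 2 lower (6.27%), with a median of 1.62 against -0.03 for all genes. In hippocampus 1 was called higher (0.618% of all genes tested) and 1 lower (2.7%), 3.31% in both directions together, with a median of 1.10 against -0.22. The sign was the same in cortex and hippocampus for 30 of the 33. No share of all genes is given beside these counts of signs, so they are descriptions only. In bulk RNA of sorted cells, fewer cells of a type and less RNA per cell cannot be told apart.

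**Figure D1:**
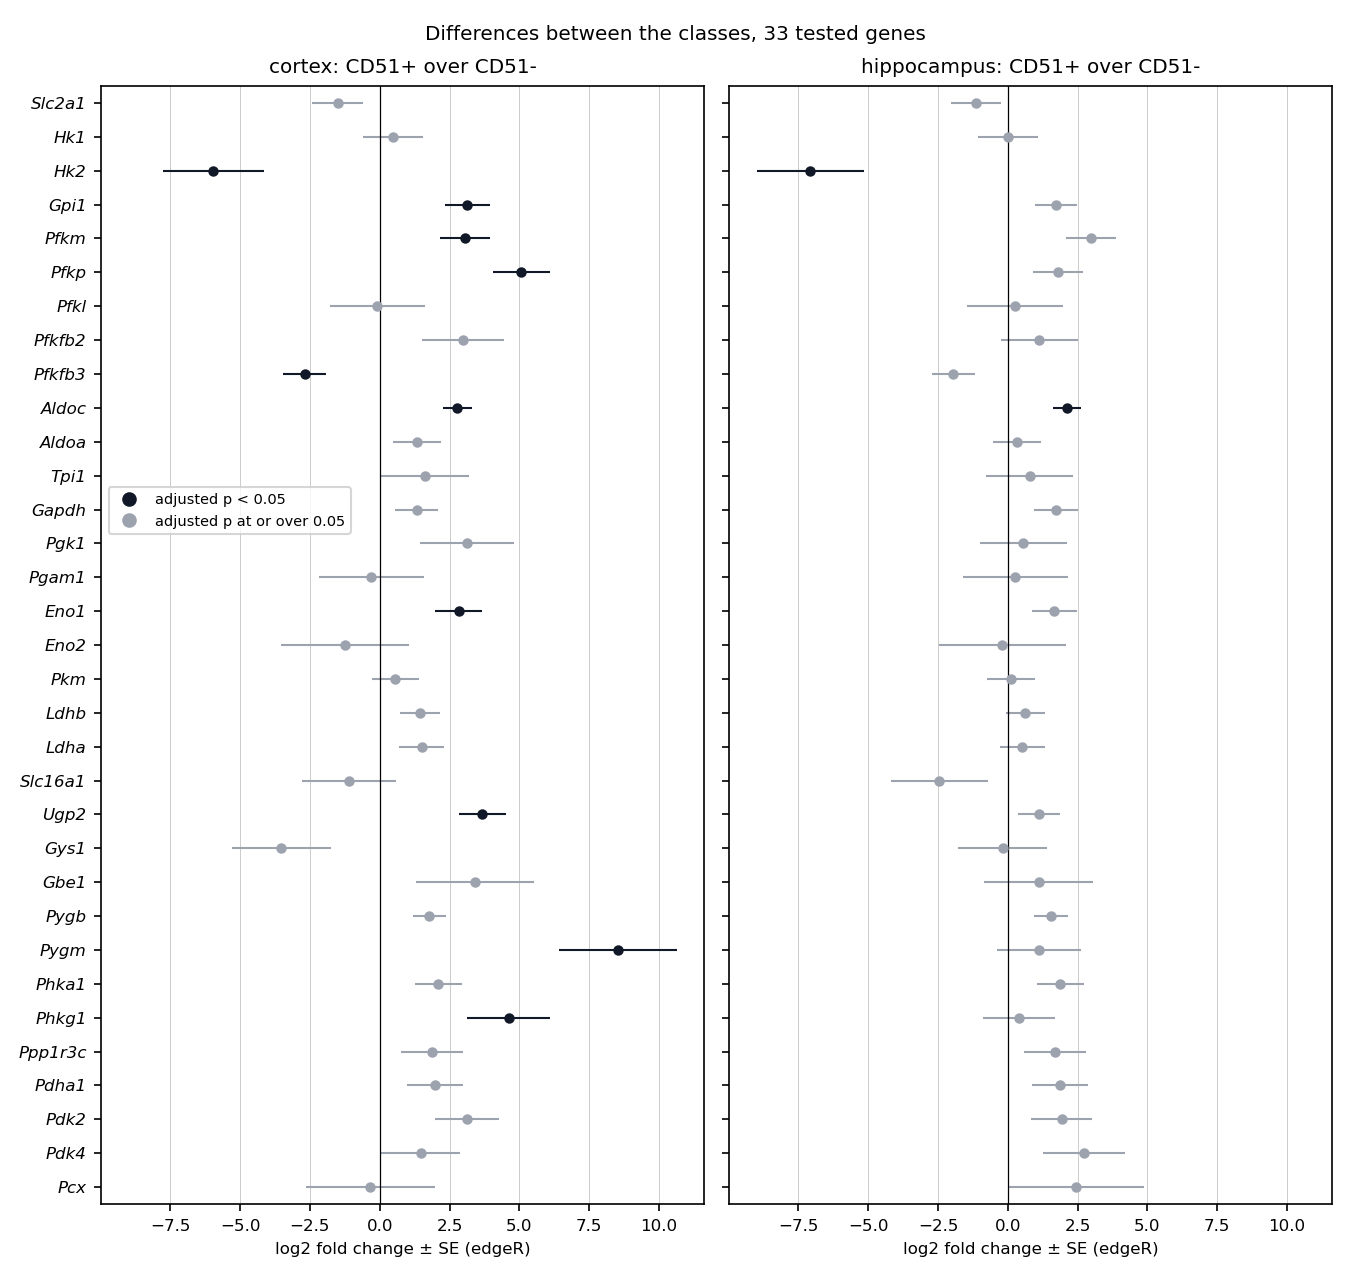
Log2 fold changes of CD51+ over CD51- libraries, with standard errors, for the 33 tested genes in cortex (left) and hippocampus (right), from 1 edgeR fit of 12 libraries. Dark points have an adjusted p under 0.05: 10 in cortex, and only Hk2 and Aldoc in hippocampus.

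The 3 libraries of each class did not overlap, with CD51+ higher, for 16 of the 33 tested genes in cortex (15.1% of all genes tested) and 12 in hippocampus (10.5%). With CD51+ lower, 3 tested genes did not overlap in cortex (16.6% of all genes tested) and 3 in hippocampus (16.7%). In both regions at once, 9 genes were higher without overlap (4.69% of all genes tested): Gpi1, Pfkm, Pfkp, Aldoc, Eno1, Pygb, Phka1, Pdha1 and Pdk2. Hk2 and Pfkfb3 were lower without overlap in both regions, 2 genes against 8.48% of all genes tested.

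**Figure D2:**
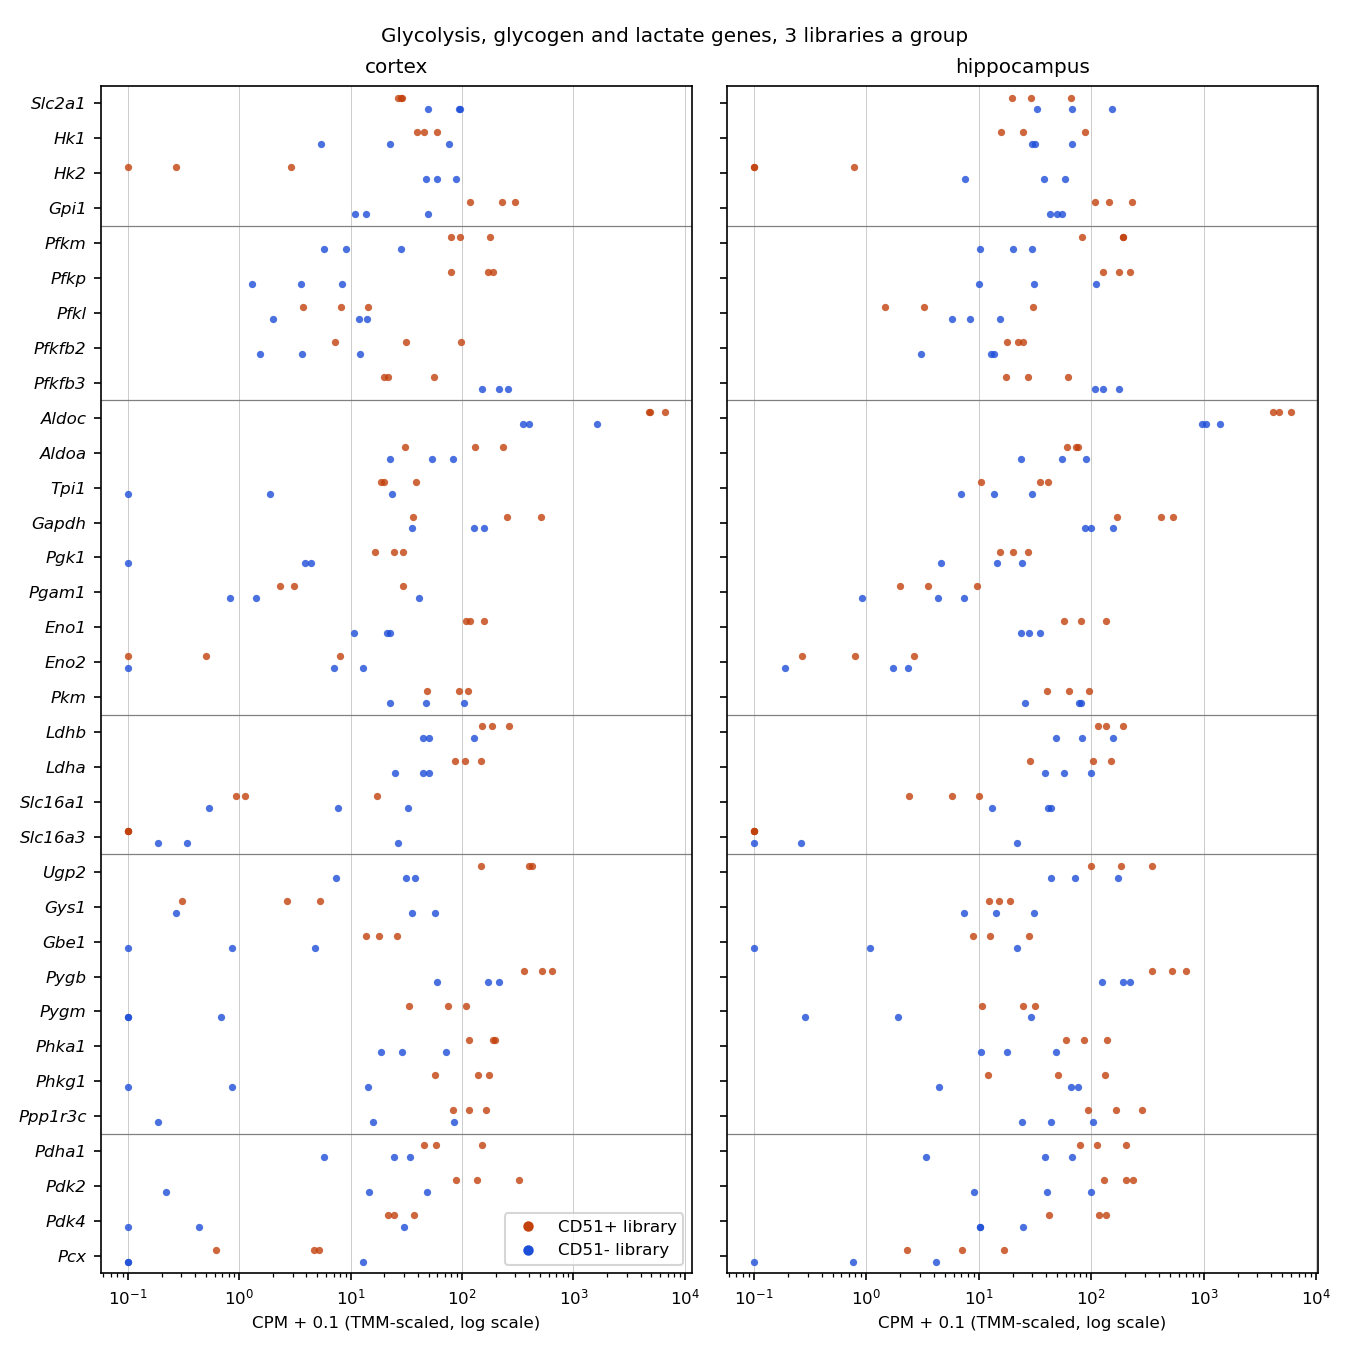
CPM plus 0.1 (log axis) of the 34 genes in each library, CD51+ in orange and CD51- in blue, for cortex (left) and hippocampus (right), with lines between the glucose entry, phosphofructokinase, lower glycolysis, lactate, glycogen and pyruvate genes. Aldoc lies above the other genes in every library, and the orange points of Hk2 and Pfkfb3 lie left of the blue points in both regions.

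The start of a gene holds short motifs that some regulators of this pathway bind: ACGTG is the core of the site of hypoxia-inducible factors and part of the E-box of Myc and ChREBP, GGGCGG is the box of Sp1 and related factors, and TGANTCA is the AP-1 site. The RefSeq promoter table (GRCm38.p6, whose chromosomes mm10 uses) matched all 34 genes, with 51 windows of 250 bases before a start, and windows of a gene can overlap. On both strands, ACGTG was found in 22 of the 51 windows (43.1%), and in 16.6% of the 32851 windows of all genes. A CACGTG holds ACGTG on each strand, and such a site gives overlapping matches. GGGCGG was found in 45.1% of the 51 windows against 32.7% of all, and TGANTCA in 1.96% against 6.75%. By gene, 18 of 34 held ACGTG, 19 held GGGCGG and 1 held TGANTCA. A match is a description of the letters and not a bound site. The windows below belong to Hk2, which fell, and to Pfkm, Pfkp and Pygm, which rose most among the isozyme families. They were chosen after the values were seen and printed 5′ to 3′ on the strand of the gene, with ACGTG and GGGCGG, on either strand, in capitals.
Hk2, chr6:82774455-82774704, minus strand: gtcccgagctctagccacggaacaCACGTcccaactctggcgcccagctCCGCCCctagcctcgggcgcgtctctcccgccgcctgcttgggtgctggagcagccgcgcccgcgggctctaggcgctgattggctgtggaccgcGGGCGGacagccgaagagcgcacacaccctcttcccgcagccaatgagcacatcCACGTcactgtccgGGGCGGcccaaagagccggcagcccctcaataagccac
Pfkm, chr15:98092339-98092588, plus strand: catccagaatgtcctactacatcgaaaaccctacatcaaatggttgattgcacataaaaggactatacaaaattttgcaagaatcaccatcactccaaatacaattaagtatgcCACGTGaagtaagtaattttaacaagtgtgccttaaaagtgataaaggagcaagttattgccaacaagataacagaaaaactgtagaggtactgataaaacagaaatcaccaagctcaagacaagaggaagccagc
Pfkp, chr13:6648772-6649021, minus strand: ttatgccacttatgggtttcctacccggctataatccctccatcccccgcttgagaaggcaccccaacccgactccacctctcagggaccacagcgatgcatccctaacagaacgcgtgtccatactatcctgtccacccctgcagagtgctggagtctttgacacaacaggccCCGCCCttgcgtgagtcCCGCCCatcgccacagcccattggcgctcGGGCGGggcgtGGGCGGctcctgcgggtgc
Pygm, chr19:6384158-6384407, plus strand: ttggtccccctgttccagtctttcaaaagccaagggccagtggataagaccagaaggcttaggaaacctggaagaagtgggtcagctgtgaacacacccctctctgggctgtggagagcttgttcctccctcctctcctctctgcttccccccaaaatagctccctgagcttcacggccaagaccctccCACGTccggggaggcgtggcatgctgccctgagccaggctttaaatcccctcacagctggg
The Hk2 window holds 2 ACGTG and 3 GGGCGG matches. The Pfkm window holds 1 CACGTG, the Pfkp window 4 GGGCGG matches and no ACGTG, and the Pygm window 1 ACGTG match. Pfkm has 4 windows in the table, of which the one farthest upstream is shown, and 2 of the 4 hold no ACGTG.

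Glucose enters astrocytes and endothelium through Slc2a1 (GLUT1), is phosphorylated by a hexokinase and is turned into fructose 6-phosphate by Gpi1. Of these 4 genes, Gpi1 was called higher and Hk2 lower with the regions averaged. Hk2, the insulin- and stress-inducible hexokinase (chr6:82725025-82774454, minus strand), had 0.168, 2.82 and 0 CPM in cortex CD51+ libraries, against 59.4, 47.2 and 87.2 CPM in cortex CD51- libraries. In hippocampus Hk2 had 0, 0.671 and 0 CPM in CD51+ libraries, from 0, 5 and 0 counts, and 7.47, 58.1 and 38.3 CPM in CD51- libraries. Every CD51+ library lay below every CD51- library. The log2 fold change was -6.52 ± 1.32 (SE) with the regions averaged (edgeR adjusted p = 0.00121), -5.96 ± 1.80 in cortex (adjusted p = 0.0352) and -7.07 ± 1.93 in hippocampus (adjusted p = 0.0424). With so few counts in CD51+ libraries, these fitted values depend on the prior count.

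The average call of Hk2 held under every alternative tried. In cortex it was lost without cortex CD51+ replicate 1 (adjusted p = 0.0998) or 3 (0.0949) and without cortex CD51- replicate 1 (0.0524) or 3 (0.0508), and without cortex CD51+ replicate 2 the log2 fold change was -9.28. In hippocampus the edgeR call was lost with upper-quartile scaling (adjusted p = 0.0532), without hippocampus CD51+ replicate 1 (0.143) or 3 (0.141) and without hippocampus CD51- replicate 2 (0.101) or 3 (0.0660), and without hippocampus CD51+ replicate 2 the log2 fold change was -11.15.

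Hk1, the hexokinase bound to mitochondria and common to most brain cells, had 45.0, 58.9 and 39.6 CPM in cortex CD51+ libraries and 22.6, 5.27 and 75.6 CPM in cortex CD51- libraries. In hippocampus Hk1 had 24.5, 88.3 and 15.7 CPM in CD51+ libraries and 31.5, 66.7 and 29.9 CPM in CD51- libraries. The classes overlapped in both regions, and the average log2 fold change was 0.24 ± 0.76 (edgeR adjusted p = 0.868). Gpi1, in contrast, had 230, 119 and 297 CPM in cortex CD51+ libraries and 13.7, 49.2 and 10.8 CPM in cortex CD51- libraries. In hippocampus Gpi1 had 107, 143 and 229 CPM in CD51+ libraries and 49.3, 54.4 and 42.7 CPM in CD51- libraries. No CD51+ library fell within the CD51- range, and the average log2 fold change was 2.42 ± 0.55 (edgeR adjusted p = 0.0032). The cortex call (3.13 ± 0.80, adjusted p = 0.0135) was lost without cortex CD51+ replicate 3 (0.0640) and without cortex CD51- replicate 1 (0.0601) or 3 (0.0528). An annotated copy of Gpi1 with at least 95% identity held 4.04% of the counts of the pair, so a small part of its reads may be placed on either.

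Slc2a1 had 28.5, 26.5 and 28.4 CPM in cortex CD51+ libraries and 95.9, 49.4 and 93.4 CPM in cortex CD51- libraries, without overlap. In hippocampus the values overlapped, with 65.8, 19.6 and 29.1 CPM in CD51+ libraries and 32.9, 67.6 and 152 CPM in CD51- libraries. The transporter did not pass the test with the regions averaged, at -1.33 ± 0.63 (edgeR adjusted p = 0.136). Of 10 endothelial markers, Cldn5 had no count in any library, and the others differed in direction. In hippocampus, Abcb1a averaged 9.5 CPM in CD51+ and 4.15 CPM in CD51- libraries, and Pecam1 averaged 0.132 and 10.9 CPM. The summed level of the 10 was 0.898 to 12.8 CPM (CD51+) against 22.4 to 35.0 CPM (CD51-) in cortex. In hippocampus it was 3.35 to 54.4 CPM (CD51+) against 14.6 to 66.5 CPM (CD51-). The part of endothelial RNA in the values of Slc2a1 was not tested.

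Phosphofructokinase commits glucose to glycolysis, and its muscle (Pfkm), platelet (Pfkp) and liver (Pfkl) subunits assemble into mixed tetramers. Fructose 2,6-bisphosphate, its activator, is made by the enzymes encoded by Pfkfb2 and Pfkfb3. With the regions averaged, Pfkm and Pfkp were called higher and Pfkfb3 lower, while Pfkl and Pfkfb2 did not pass the test. Pfkm had 179, 79.8 and 95.6 CPM in cortex CD51+ libraries, against 8.94, 5.63 and 28.2 CPM in cortex CD51- libraries. In hippocampus Pfkm had 83.3, 192 and 192 CPM in CD51+ libraries and 29.4, 10.1 and 20.01 CPM in CD51- libraries. The lowest CD51+ library stood above the highest CD51- library in each region, and the average log2 fold change was 3.01 ± 0.63 (edgeR adjusted p = 0.00162).

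Pfkp had 188, 171 and 78.7 CPM in cortex CD51+ libraries and 8.27, 1.20 and 3.5 CPM in cortex CD51- libraries. In hippocampus Pfkp had 126, 222 and 175 CPM in CD51+ libraries and 110, 9.94 and 30.9 CPM in CD51- libraries. Cortex CD51- libraries were the low ones, and hippocampus CD51- replicate 1 came close to the CD51+ range. The log2 fold change was 3.43 ± 0.67 on average (edgeR adjusted p = 0.000855), 5.07 ± 1.02 in cortex (adjusted p = 0.00254) and 1.79 ± 0.89 in hippocampus (adjusted p = 0.274). Pfkl stayed low in all groups, at 3.65 to 14.1 CPM (CD51+) against 1.92 to 13.8 CPM (CD51-) in cortex, and 1.38 to 30.5 CPM (CD51+) against 5.71 to 15.3 CPM (CD51-) in hippocampus. Its classes overlapped in both regions, and its average log2 fold change was 0.08 ± 1.21 (edgeR adjusted p = 0.986).

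Pfkfb3, whose product raises fructose 2,6-bisphosphate and which is known as an inducible gene, went the other way from Pfkm and Pfkp. It had 21.5, 19.8 and 55.4 CPM in cortex CD51+ libraries and 151, 215 and 258 CPM in cortex CD51- libraries. In hippocampus Pfkfb3 had 27.3, 61.8 and 17.3 CPM in CD51+ libraries and 109, 126 and 176 CPM in CD51- libraries. No libraries of the classes overlapped, and the log2 fold change was -2.32 ± 0.54 on average (edgeR adjusted p = 0.00419), -2.69 ± 0.78 in cortex (adjusted p = 0.0286) and -1.95 ± 0.76 in hippocampus (adjusted p = 0.154). Pfkfb2, another isozyme of the same enzyme, had 7.05 to 97.8 CPM (CD51+) against 1.44 to 12.1 CPM (CD51-) in cortex, and 17.6 to 24.5 CPM (CD51+) against 2.99 to 13.5 CPM (CD51-) in hippocampus. The classes did not overlap in hippocampus, and the average log2 fold change of Pfkfb2 was 2.06 ± 1.004 (edgeR adjusted p = 0.145). DESeq2 called Pfkfb2 higher on average (adjusted p = 0.0278) and in cortex (0.0304).

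The average calls of Pfkm, Pfkp and Pfkfb3, and the cortex call of Pfkp, held under every alternative tried. The cortex call of Pfkm (log2 fold change 3.05 ± 0.89, edgeR adjusted p = 0.0300) was lost with no filter on low counts (0.0587), with a fit of the cortex libraries only (0.0894), without cortex CD51+ replicate 1 (0.108) or 3 (0.0577), without cortex CD51- replicate 1 (0.0978) or 2 (0.0974), and without hippocampus CD51+ replicate 3 (0.0525). The hippocampus value of Pfkm, 2.97 ± 0.89, missed the threshold in edgeR (adjusted p = 0.0663) and passed it in DESeq2 (0.00431) and limma-voom (0.0317). The cortex call of Pfkfb3 was lost without cortex CD51+ replicate 1 (0.111) or 2 (0.114) and without cortex CD51- replicate 2 (0.0567) or 3 (0.0573). Exons of Pfkp share 5.58% of their bases with Pitrm1 on the opposite strand, and counting was unstranded, so reads there cannot be told apart.

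The lower part of glycolysis splits the sugar and turns it into pyruvate through aldolase, triose phosphate isomerase (Tpi1), glyceraldehyde 3-phosphate dehydrogenase (Gapdh), phosphoglycerate kinase (Pgk1), phosphoglycerate mutase (Pgam1), enolase and pyruvate kinase (Pkm). Of these 9 genes, Aldoc, Gapdh and Eno1 were called higher with the regions averaged and none lower. Aldoc, the aldolase of brain and a marker of astrocytes (chr11:78322968-78327781, plus strand), had 4836, 4801 and 6635 CPM in cortex CD51+ libraries, against 351, 397 and 1623 CPM in cortex CD51- libraries. In hippocampus Aldoc had 4123, 5962 and 4692 CPM in CD51+ libraries and 967, 1395 and 1053 CPM in CD51- libraries. All 6 CD51+ libraries stood above every CD51- library. The log2 fold change was 2.45 ± 0.36 on average (edgeR adjusted p = 4.19e-05), 2.78 ± 0.51 in cortex (adjusted p = 0.00124) and 2.11 ± 0.50 in hippocampus (adjusted p = 0.0179). Leaving out hippocampus CD51+ replicate 2 ended the hippocampus call (adjusted p = 0.0575), and no alternative ended the others. The 15 pan-astrocyte markers, which do not include Aldoc, summed to 54953 to 74743 CPM (CD51+) against 6759 to 14732 CPM (CD51-) in cortex, and 47005 to 57902 CPM (CD51+) against 15329 to 17748 CPM (CD51-) in hippocampus.

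Aldoa, the aldolase found in most tissues, had 30.6, 131 and 233 CPM in cortex CD51+ libraries and 83.0, 53.3 and 22.3 CPM in cortex CD51- libraries. In hippocampus Aldoa had 76.6, 73.5 and 60.8 CPM in CD51+ libraries and 54.8, 89.8 and 23.5 CPM in CD51- libraries. These ranges overlapped, and the average log2 fold change was 0.82 ± 0.60 (edgeR adjusted p = 0.355). Eno1, the enolase of most non-neuronal cells, had 107, 118 and 157 CPM in cortex CD51+ libraries and 21.1, 10.5 and 22.3 CPM in cortex CD51- libraries. In hippocampus Eno1 had 56.9, 136 and 81.1 CPM in CD51+ libraries and 27.9, 34.9 and 23.8 CPM in CD51- libraries. The classes did not overlap, and the log2 fold change was 2.24 ± 0.58 on average (edgeR adjusted p = 0.00889). In cortex it was 2.83 ± 0.85 (adjusted p = 0.0337), a call lost in 13 of 21 alternatives. Among those were the replicate block (0.0557), each of the 6 cortex libraries left out in turn (0.0651 to 0.108), and hippocampus CD51+ replicate 2 (0.0549) or 3 (0.0511) and hippocampus CD51- replicate 1 (0.0506) or 2 (0.0511) left out. Eno2, the neuronal enolase, lay between 0 and 12.8 CPM in all 12 libraries, and its classes overlapped in both regions (average log2 fold change -0.72 ± 1.62, edgeR adjusted p = 0.801).

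Gapdh had 508, 252 and 36.1 CPM in cortex CD51+ libraries and 127, 35.3 and 156 CPM in cortex CD51- libraries. In hippocampus Gapdh had 170, 534 and 418 CPM in CD51+ libraries and 156, 98.9 and 87.7 CPM in CD51- libraries. The lowest cortex CD51+ value was that of replicate 3, the library rich in mitochondrial rRNA, and it lay inside the CD51- range, while in hippocampus the classes did not overlap. The average log2 fold change of 1.52 ± 0.55 was called with little margin (edgeR adjusted p = 0.0497). It was lost in 13 of 20 alternatives, with adjusted p up to 0.175. These included limma-voom (0.0828), no filter (0.0596), the replicate block (0.0637), mitochondrial genes left out (0.0565), cortex CD51+ replicate 1 (0.175) or 2 (0.0663), cortex CD51- replicate 1 (0.0572) or 2 (0.0926), hippocampus CD51+ replicate 2 (0.111) or 3 (0.0828), and hippocampus CD51- replicate 1 (0.0504), 2 (0.0903) or 3 (0.0905) left out. Gapdh has 79 annotated copies with at least 95% identity over at least 150 bases, which held 14.9% of the counts of the whole group, so its own level is uncertain.

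Tpi1, Pgk1, Pgam1 and Pkm did not pass the edgeR test in any contrast, and DESeq2 called Pgk1 higher in cortex (adjusted p = 0.0372). Tpi1 had 18.5 to 38.8 CPM (CD51+) against 0 to 23.3 CPM (CD51-) in cortex, and 10.3 to 41.2 CPM (CD51+) against 6.90 to 29.9 CPM (CD51-) in hippocampus. Pgk1 did not overlap in cortex, at 16.5 to 29.6 CPM in CD51+ and 0 to 4.30 CPM in CD51- libraries, and overlapped in hippocampus, at 15.4 to 27.3 CPM in CD51+ and 4.53 to 24.0 CPM in CD51- libraries. Its average log2 fold change was 1.83 ± 1.13 (edgeR adjusted p = 0.261). Pgam1 spanned 1.88 to 29.6 CPM over the CD51+ libraries and 0.729 to 41.0 CPM over the CD51- libraries, each upper end set by 1 library. Pkm, whose splice forms a gene-level count does not separate, had 47.8 to 113 CPM (CD51+) against 22.5 to 104 CPM (CD51-) in cortex. In hippocampus Pkm had 40.0 to 95.2 CPM (CD51+) against 25.9 to 80.3 CPM (CD51-). The classes overlapped for Pkm in both regions (average log2 fold change 0.33 ± 0.60, edgeR adjusted p = 0.745).

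Lactate is made and used by lactate dehydrogenase, whose M chain comes from Ldha and whose H chain comes from Ldhb. None of the 3 tested lactate genes (Ldha, Ldhb and Slc16a1) was called by edgeR, DESeq2 or limma-voom with the regions averaged, and 1 of them, Ldhb, had an unadjusted edgeR p under 0.05. Ldhb had 263, 150 and 187 CPM in cortex CD51+ libraries and 44.6, 50.2 and 128 CPM in cortex CD51- libraries. In hippocampus Ldhb had 136, 115 and 192 CPM in CD51+ libraries and 155, 82.7 and 48.7 CPM in CD51- libraries. The classes stood apart in cortex and overlapped in hippocampus, with an average log2 fold change of 1.03 ± 0.50 (edgeR adjusted p = 0.141). Ldha showed the same layout, with 86.0, 105 and 148 CPM in cortex CD51+ libraries and 50.4, 44.6 and 24.8 CPM in cortex CD51- libraries. In hippocampus Ldha had 28.2, 149 and 103 CPM in CD51+ libraries and 38.8, 57.5 and 99.9 CPM in CD51- libraries, which overlap. Its average log2 fold change was 1.01 ± 0.57 (edgeR adjusted p = 0.215).

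In CD51+ libraries both lactate transporters lay below Ldha and Ldhb. Slc16a1 (MCT1), which carries lactate in astrocytes, oligodendrocytes and endothelium, had 0.840, 1.03 and 17 CPM in cortex CD51+ libraries and 7.59, 32.4 and 0.438 CPM in cortex CD51- libraries. In hippocampus Slc16a1 had 9.86, 2.28 and 5.70 CPM in CD51+ libraries and 12.9, 43.5 and 41.5 CPM in CD51- libraries, without overlap. The average log2 fold change of Slc16a1 was -1.78 ± 1.20 (edgeR adjusted p = 0.311). Slc16a3 (MCT4), known as the lactate exporter of glycolytic cells and astrocytes, had no count in any of the 6 CD51+ libraries. The CD51- libraries had 1, 2 and 181 counts in cortex and 2, 0 and 241 counts in hippocampus, so nearly all came from replicate 3 of each region. Slc16a3 was pooled over each group and set against a floor of 3 counts. The pooled level was at least 42.4-fold lower in CD51+ libraries in cortex and in hippocampus. Both bounds rest on CD51- replicate 3 of the region, since the other CD51- libraries held at most 2 counts each. Slc16a3 did not pass the filter on low counts and was not tested. The average contrast called it lower with no filter (edgeR adjusted p = 0.00466) and in the 10 fits with 1 library left out in which it passed the filter. Without cortex CD51- replicate 3 or hippocampus CD51- replicate 3 it was not tested.

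Glycogen is built from UDP-glucose, made by Ugp2, through glycogen synthase (Gys1) and the branching enzyme (Gbe1). It is broken down by glycogen phosphorylase, in a brain form (Pygb) and a muscle form (Pygm) that astrocytes also hold, and phosphorylase kinase (subunits Phka1 and Phkg1 among others) switches the phosphorylase on. Of the 8 glycogen genes, Pygb, Pygm, Ugp2 and Phka1 were called higher with the regions averaged and none lower. Pygb had 520, 361 and 642 CPM in cortex CD51+ libraries and 59.7, 169 and 216 CPM in cortex CD51- libraries. In hippocampus Pygb had 350, 694 and 527 CPM in CD51+ libraries and 220, 124 and 193 CPM in CD51- libraries. The classes did not overlap, and the average log2 fold change was 1.66 ± 0.42 (edgeR adjusted p = 0.00777).

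Pygm was nearly confined to CD51+ libraries in cortex, with 33.1, 108 and 74.1 CPM there and 0, 0 and 0.584 CPM in cortex CD51- libraries. The 3 cortex CD51- libraries held 4 counts of Pygm in all, against 1401 in the cortex CD51+ libraries. In hippocampus Pygm had 24.8, 31.7 and 10.6 CPM in CD51+ libraries and 1.81, 0.186 and 29.2 CPM in CD51- libraries, where replicate 3 alone reached the CD51+ range. The log2 fold change was 4.81 ± 1.26 on average (edgeR adjusted p = 0.00906), 8.52 ± 2.10 in cortex (adjusted p = 0.0109) and 1.10 ± 1.51 in hippocampus (adjusted p = 0.789). The average and cortex calls held under every alternative tried, and the size of the cortex value rests on those 4 counts.

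Ugp2 had 148, 425 and 395 CPM in cortex CD51+ libraries and 31.1, 37.4 and 7.29 CPM in cortex CD51- libraries. In hippocampus Ugp2 had 98.9, 183 and 345 CPM in CD51+ libraries and 43.7, 173 and 72.4 CPM in CD51- libraries. The classes stood apart in cortex and overlapped in hippocampus. The log2 fold change was 2.39 ± 0.56 on average (edgeR adjusted p = 0.00402), 3.67 ± 0.83 in cortex (adjusted p = 0.00609) and 1.11 ± 0.76 in hippocampus (adjusted p = 0.486), and no alternative ended the first 2 calls. Phka1, the muscle regulatory subunit, had 115, 198 and 191 CPM in cortex CD51+ libraries and 18.6, 71.1 and 29.0 CPM in cortex CD51- libraries. In hippocampus Phka1 had 137, 59.0 and 86.4 CPM in CD51+ libraries and 48.4, 17.7 and 10.4 CPM in CD51- libraries, again without overlap. Its average log2 fold change of 1.98 ± 0.59 (edgeR adjusted p = 0.0197) was lost with no filter (0.0538), without cortex CD51+ replicate 3 (0.0518), without hippocampus CD51+ replicate 1 (0.0600) and without hippocampus CD51- replicate 2 (0.0520) or 3 (0.0603).

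Phkg1, the muscle catalytic subunit of the same kinase, had 174, 139 and 57.4 CPM in cortex CD51+ libraries and 0.759, 0 and 14.3 CPM in cortex CD51- libraries. In hippocampus Phkg1 had 131, 11.9 and 50.6 CPM in CD51+ libraries and 76.6, 4.37 and 66.2 CPM in CD51- libraries, which overlap. It was called in cortex (log2 fold change 4.62 ± 1.49, edgeR adjusted p = 0.0457) and not on average (2.51 ± 0.95, adjusted p = 0.0604). The average passed the threshold in 7 alternatives: DESeq2 (adjusted p = 0.0258), limma-voom (0.0280), upper-quartile scaling (0.0436), no filter (0.0223), the replicate block (0.0189), without hippocampus CD51+ replicate 2 (0.0442) and without cortex CD51- replicate 3 (0.00165), where the average was 4.26. The cortex call was lost with a fit of the cortex libraries only (0.0678), without cortex CD51+ replicate 1 (0.0815), 2 (0.0715) or 3 (0.0543) and without cortex CD51- replicate 1 (0.105) or 2 (0.0759), and without cortex CD51- replicate 3 the value was 8.17. A short stretch of its transcript matched 11 other genes at 95% identity or more, so its level is uncertain.

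Gys1, Gbe1 and Ppp1r3c did not pass the edgeR test as fitted in any contrast, and some alternatives called them. DESeq2 called Gys1 lower in cortex (adjusted p = 0.0319), and limma-voom called Gbe1 (0.0234) and Ppp1r3c (0.0172) higher on average. Ppp1r3c was also called on average by edgeR with the replicate block (adjusted p = 0.0448) and without cortex CD51- replicate 2 (0.0129, log2 fold change 2.80). Gys1, the synthase itself, had 5.21, 2.56 and 0.203 CPM in cortex CD51+ libraries and 0.169, 35.2 and 57.2 CPM in cortex CD51- libraries. In hippocampus Gys1 had 18.8, 12.2 and 15.1 CPM in CD51+ libraries and 7.31, 30.6 and 14.2 CPM in CD51- libraries. The classes of Gys1 overlapped in both regions, and its average log2 fold change was -1.85 ± 1.17 (edgeR adjusted p = 0.270). Gbe1 had 13.6 to 25.8 CPM (CD51+) against 0 to 4.67 CPM (CD51-) in cortex, and 8.72 to 27.8 CPM (CD51+) against 0 to 21.8 CPM (CD51-) in hippocampus. Ppp1r3c (PTG), which brings protein phosphatase 1 to glycogen, had 83.5 to 165 CPM (CD51+) against 0.0844 to 83.6 CPM (CD51-) in cortex, and 94.5 to 284 CPM (CD51+) against 23.9 to 104 CPM (CD51-) in hippocampus. Cortex CD51- replicate 2 and hippocampus CD51- replicate 2 held the highest CD51- values of Ppp1r3c and reached the CD51+ ranges (average log2 fold change 1.77 ± 0.79, edgeR adjusted p = 0.109).

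Pyruvate enters the mitochondrial cycle through pyruvate dehydrogenase, whose E1 alpha subunit is Pdha1 and which the kinases Pdk2 and Pdk4 shut down, or through pyruvate carboxylase (Pcx), an enzyme of astrocytes rather than neurons. Of these 4 genes, Pdk2 was called higher with the regions averaged. Pdk2 had 136, 325 and 88.5 CPM in cortex CD51+ libraries and 14.3, 0.120 and 48.6 CPM in cortex CD51- libraries. In hippocampus Pdk2 had 206, 129 and 234 CPM in CD51+ libraries and 98.8, 9.01 and 40.3 CPM in CD51- libraries. All 6 CD51+ libraries were above the CD51- libraries of their region, and the average log2 fold change was 2.53 ± 0.79 (edgeR adjusted p = 0.0239). The call was lost without cortex CD51+ replicate 2 (0.0579) and without hippocampus CD51- replicate 2 (0.0503).

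Pdha1 had 57.9, 45.5 and 151 CPM in cortex CD51+ libraries and 5.65, 24.3 and 34.3 CPM in cortex CD51- libraries. In hippocampus Pdha1 had 79.6, 113 and 205 CPM in CD51+ libraries and 67.0, 39.1 and 3.26 CPM in CD51- libraries. The classes did not overlap, and the average log2 fold change of 1.92 ± 0.70 missed the threshold in edgeR (adjusted p = 0.0510) and passed it in DESeq2 (0.0241) and limma-voom (0.0302). Exons of Pdha1 share 16.2% of their bases with Map3k15 on the opposite strand. Pdk4, a kinase induced by fasting and fatty acids, had 21.3, 37.2 and 24.1 CPM in cortex CD51+ libraries and 0.338, 0 and 29.8 CPM in cortex CD51- libraries. In hippocampus Pdk4 had 135, 118 and 42.0 CPM in CD51+ libraries and 10.2, 24.6 and 10.1 CPM in CD51- libraries, without overlap (average log2 fold change 2.09 ± 1.02, edgeR adjusted p = 0.145). Its average was called in limma-voom (3.83, adjusted p = 0.0125). Without cortex CD51- replicate 3, edgeR gave Pdk4 4.89 on average (adjusted p = 0.00107) and 7.10 in cortex (0.00718), against 1.46 with that library. Pcx was scarce, at 0.513 to 5.07 CPM (CD51+) against 0 to 12.8 CPM (CD51-) in cortex, and 2.18 to 16.7 CPM (CD51+) against 0 to 4.09 CPM (CD51-) in hippocampus.

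Isozyme families were then compared by the share that each member took of its family within a library, after division by exon length, so that library size cancels. These shares are descriptions with no test. Hk2 took 2.31% ± 3.56 of the 2 hexokinases in cortex CD51+ libraries and 78.0% ± 15.3 in cortex CD51- libraries (SD, n = 3 each). In hippocampus its share was 0.358% ± 0.62 in CD51+ libraries and 48.5% ± 20.6 in CD51- libraries. The CD51+ libraries thus held Hk1 nearly alone, with at most 6.41% of Hk2, while the lowest CD51- library had 25.4%. Pfkfb3 took 49.3% ± 20.5 of Pfkfb2 plus Pfkfb3 in cortex CD51+ libraries and 97.4% ± 2.00 in cortex CD51- libraries, and 57.7% ± 13.3 in hippocampus CD51+ and 92.4% ± 5.16 in hippocampus CD51- libraries. No CD51+ library reached the CD51- range.

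Aldoc took 97.5% ± 1.60 of the aldolases in cortex CD51+ libraries and 88.1% ± 9.78 in cortex CD51- libraries, which overlap. In hippocampus its share was 98.4% ± 0.373 in CD51+ libraries and 94.95% ± 2.29 in CD51- libraries, which do not. Ldhb took 78.1% ± 7.40 of the lactate dehydrogenases in cortex CD51+ libraries and 75.7% ± 14 in cortex CD51- libraries, and 77.5% ± 14.7 in hippocampus CD51+ and 71.8% ± 19.6 in hippocampus CD51- libraries. The balance of H and M chains overlapped between the classes in both regions, and the H chain was the larger part per length in all 12 libraries. In raw counts, not divided by length, it fell below 50% in cortex CD51- replicate 1 (46.9%), hippocampus CD51+ replicate 2 (43.4%) and hippocampus CD51- replicate 3 (32.8%).

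Among the phosphofructokinases, Pfkm was the largest share per length in every group, at 73.7% ± 10.6 in cortex CD51+, 70.8% ± 18 in cortex CD51-, 75.4% ± 4.83 in hippocampus CD51+ and 54.6% ± 9.51 in hippocampus CD51- libraries. The liver subunit was the smallest share in CD51+ libraries: Pfkl took 2.92% ± 2.19 in cortex CD51+ and 23.1% ± 13.4 in cortex CD51- libraries, and 2.36% ± 2.99 in hippocampus CD51+ and 17.99% ± 17.2 in hippocampus CD51- libraries. Its shares did not overlap between the classes in either region, while its level did. Outside cortex CD51- libraries, the lead of Pfkm rests on exon length, 13401 bases for Pfkp and 3340 for Pfkm. Undivided counts placed Pfkp first, with a mean of 53.0% against 43.8% for Pfkm (cortex CD51+). The same pair stood at 52.4% against 44.8% (hippocampus CD51+) and 52.4% against 28.0% (hippocampus CD51-). Cortex CD51- went the other way, with 16.15% for Pfkp against 52.7% for Pfkm. Pygm took 18.1% ± 11.5 of the 2 phosphorylases in cortex CD51+ libraries and 0.134% ± 0.232 in cortex CD51- libraries, and in hippocampus 6.29% ± 3.33 in CD51+ and 6.61% ± 10.2 in CD51- libraries. Pdk2 took 86.2% ± 5.34 of Pdk2 plus Pdk4 in cortex CD51+ and 87.5% ± 19.96 in cortex CD51- libraries, and 67.9% ± 16.2 in hippocampus CD51+ and 67.4% ± 33.7 in hippocampus CD51- libraries. The kinase shares were close between classes, although 1 cortex CD51- library had only 1 count of the pair.

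**Figure D3:**
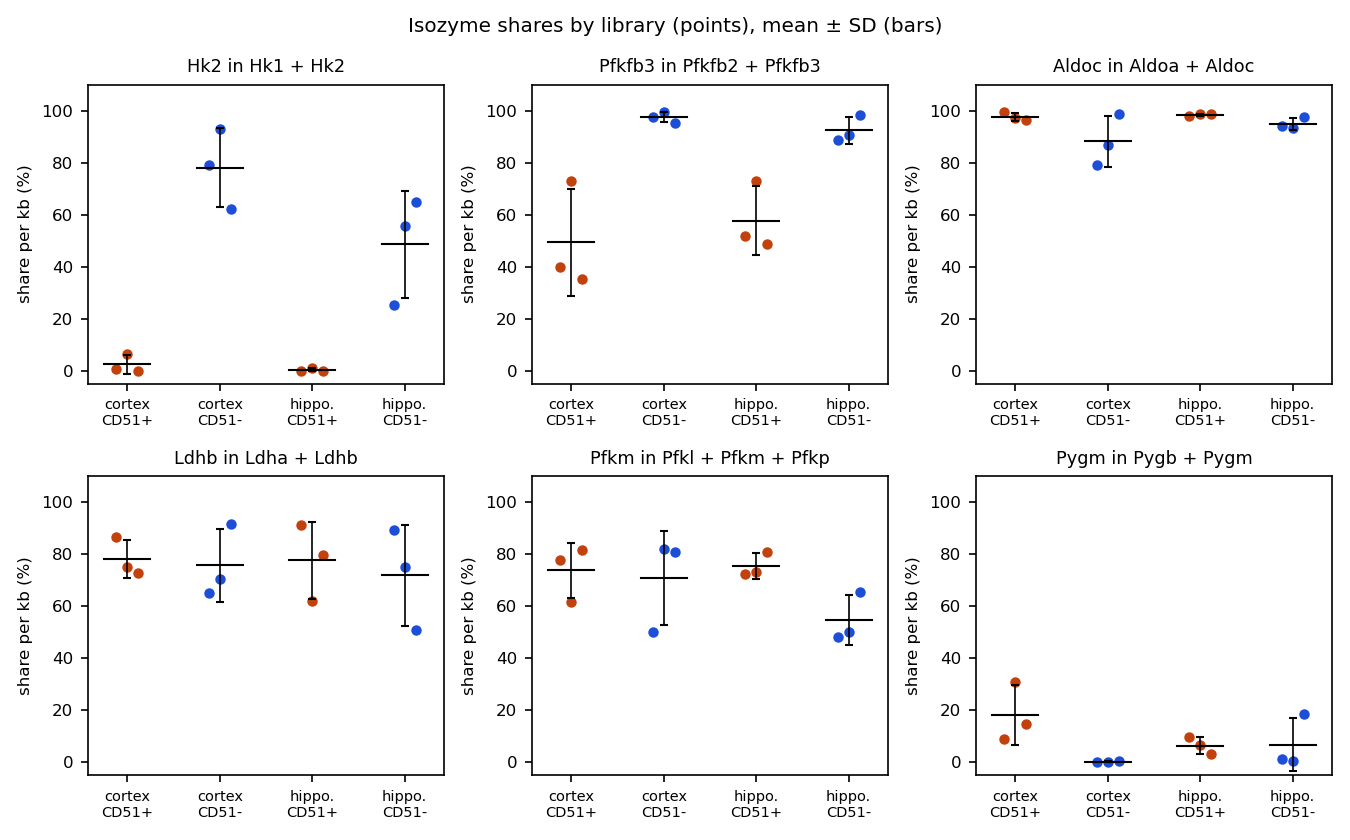
Share (percent, per kb of exon) of an isozyme within its family in each library (points), with group mean and SD (bars), in cortex and hippocampus CD51+ (orange) and CD51- (blue) libraries. The shares of Hk2 and Pfkfb3 separate the classes in both regions, and the shares of Ldhb do not.

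Levels were also put on the scale of CPM per kilobase of exon (RPKM), with the length of all annotated exons of a gene together. That length was 13401 bases for Pfkp and 1570 for Ldhb and may exceed the transcript present, so the order between genes is approximate. On this scale Aldoc was the highest of the 34 genes in each group. In cortex Aldoc had 1662 ± 321 RPKM in CD51+ and 242 ± 221 in CD51- libraries (SD, n = 3 each). In hippocampus Aldoc had 1510 ± 289 RPKM in CD51+ and 349 ± 69.4 in CD51- libraries. The next genes in cortex CD51+ libraries were Ldhb at 128 ± 36.6 RPKM, Pygb at 106 ± 29.4, Ugp2 at 105 ± 49.5 and Gapdh at 64.2 ± 57.1, and these neighbours do not differ beyond their spread. The entry step was lower: Hk1 stood at 5.6 ± 1.17 RPKM and Slc2a1 at 7.94 ± 0.319 RPKM in cortex CD51+ libraries. In cortex CD51- libraries, Pfkfb3 stood at 27.5 ± 7.09 RPKM and Slc2a1 at 22.7 ± 7.46 RPKM, among the highest after Aldoc, Ldhb and Pygb.

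The sums of the microglial and of the oligodendrocyte markers moved with the classes, while no neuronal marker was called. The 10 neuronal markers summed to 144 to 439 CPM (CD51+) against 138 to 291 CPM (CD51-) in cortex. In hippocampus they summed to 190 to 426 CPM (CD51+) against 25.9 to 138 CPM (CD51-), and 0 of 8 tested were called on average. The 14 microglial markers summed to 341 to 1062 CPM (CD51+) against 9575 to 12652 CPM (CD51-) in cortex, and 209 to 1796 CPM (CD51+) against 5775 to 8759 CPM (CD51-) in hippocampus. Averaged over the regions, 13 of the 14 were called lower in CD51+ libraries (median log2 fold change -3.94), and Aif1 had no count in 5 of the 6 CD51+ libraries. The 12 oligodendrocyte markers summed to 2720 to 2861 CPM (CD51+) against 33246 to 64018 CPM (CD51-) in cortex, and 1254 to 4972 CPM (CD51+) against 6912 to 38030 CPM (CD51-) in hippocampus, with 5 of 11 tested called lower. Some members went the other way in hippocampus, where CD51+ and CD51- libraries averaged 145 and 82.8 CPM of Cnp and 20.1 and 4.87 CPM of Mog. Mag did so too (1.70 and 1.27 CPM), and in cortex Opalin (1.28 and 0.340 CPM). The other means of the list were not higher in CD51+ libraries. The 10 immediate early genes, which rise in stressed and dissociated cells, summed to 128 to 187 CPM (CD51+) against 12431 to 17965 CPM (CD51-) in cortex, and 128 to 428 CPM (CD51+) against 6332 to 14043 CPM (CD51-) in hippocampus. Of the 15 pan-astrocyte markers, 14 were called higher in CD51+ libraries on average (median log2 fold change 2.50). In cortex CD51- libraries the 15 summed to 6759 to 14732 CPM, below the oligodendrocyte sum, in which Mbp alone averaged 33280 CPM. Sums of different lists do not measure shares of cells or of RNA. They show that marker RNA of other cell types was counted in libraries with the title of astrocyte. The part of these differences in the values of the pathway genes was not tested.

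Set against the astrocyte signal, the genes divided. Per 1000 CPM of summed pan-astrocyte markers, Aldoc had 71.5 to 88.8 CPM in cortex CD51+ and 49.5 to 110 CPM in cortex CD51- libraries, which overlap. In hippocampus this ratio of Aldoc was 84.9 to 103 in CD51+ and 63.1 to 78.6 in CD51- libraries, which do not. Eno1 overlapped on this scale in both regions, with 1.76 to 2.11 (CD51+) against 1.52 to 2.98 (CD51-) in cortex, and 1.21 to 2.36 (CD51+) against 1.54 to 1.97 (CD51-) in hippocampus. Gpi1 had 1.77 to 4.19 (CD51+) against 0.733 to 7.29 (CD51-) in cortex, and 2.28 to 4.14 (CD51+) against 2.76 to 3.21 (CD51-) in hippocampus, which also overlap. Pygb had 5.37 to 9.47 (CD51+) against 8.43 to 25 (CD51-) in cortex, and 7.45 to 12.0 (CD51+) against 6.96 to 14.4 (CD51-) in hippocampus. Of the genes called higher in CPM, Gpi1, Pfkm, Pfkp, Gapdh, Eno1, Pygb, Ugp2, Phka1 and Pdk2 overlapped between the classes in both regions once set against these markers. Division by a sum that is higher in every CD51+ library itself narrows or reverses the difference of a gene that is higher there. Such an overlap is therefore a description only, and whether these genes follow astrocyte content was not tested.

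Hk2, Pfkfb3 and Slc2a1 lay below the CD51- range on this scale in both regions. The marker sum is higher in every CD51+ library, so the division widens any gene already lower there, and these ratios are descriptions only. Hk2 had 0 to 0.0420 (CD51+) against 5.92 to 8.39 (CD51-) per 1000 CPM of the markers in cortex, and 0 to 0.0116 (CD51+) against 0.487 to 3.28 (CD51-) in hippocampus. Pfkfb3 had 0.294 to 0.741 (CD51+) against 17.5 to 31.8 (CD51-) in cortex, and 0.312 to 1.07 (CD51+) against 7.09 to 11.4 (CD51-) in hippocampus. Slc2a1 had 0.380 to 0.519 (CD51+) against 6.34 to 13.5 (CD51-) in cortex, and 0.338 to 1.4 (CD51+) against 2.15 to 9.82 (CD51-) in hippocampus. Pygm lay above the CD51- range in cortex, with 0.602 to 1.60 in CD51+ and 0 to 0.0396 in CD51- libraries, and not in hippocampus. Which cells held each transcript was not measured.

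**Figure D4:**
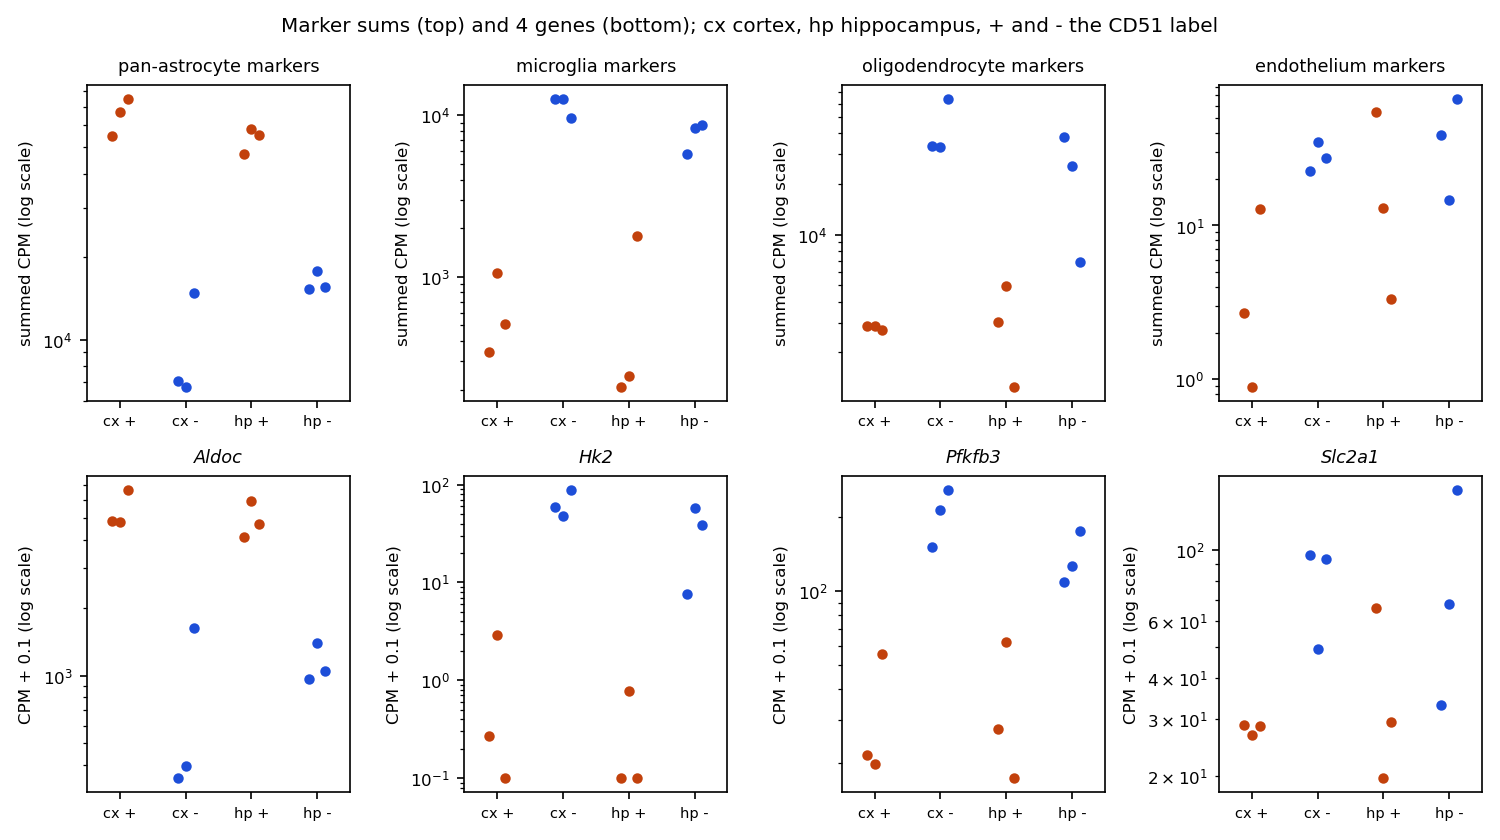
Summed CPM of pan-astrocyte, microglial, oligodendrocyte and endothelial markers (top) and CPM plus 0.1 of Aldoc, Hk2, Pfkfb3 and Slc2a1 (bottom) in each library, on log axes, CD51+ in orange and CD51- in blue, cx for cortex and hp for hippocampus. Aldoc follows the pan-astrocyte sum, with cortex CD51- replicate 3 the highest of its group in both panels, and Hk2 and Pfkfb3 are low in the CD51+ libraries.

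Averaged over the classes, edgeR called 0 of the 33 genes in hippocampus against cortex (0.19% of all genes tested, 0.159% higher), DESeq2 and limma-voom called 0, and 1 gene had an unadjusted edgeR p under 0.05. That gene was Pfkp, higher in hippocampus by 1.89 ± 0.63 on the log2 scale (edgeR adjusted p = 0.146). The difference of the CD51 effect between hippocampus and cortex was not called for any of the 33 by edgeR (0% of all genes tested) or limma-voom, and for 1 gene by DESeq2. Pygm was that gene, whose log2 fold change in hippocampus minus that in cortex was -7.42 ± 2.40 in edgeR (adjusted p = 0.202), against an adjusted p of 0.0127 in DESeq2. Pfkp (-3.27 ± 1.25), Ugp2 (-2.56 ± 1.08) and Phkg1 (-4.23 ± 1.88) were the other 3 genes with an unadjusted edgeR p under 0.05, with adjusted p of 0.283, 0.329 and 0.354. The cortex calls of these genes are therefore not shown to be particular to cortex.

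Other genes of the same pathways were read from lists that do not overlap the 34. Of 14 other glycolysis genes tested with the regions averaged, 1 was called higher and 2 lower, against 8.87% higher and 13.9% lower of all genes tested, shares near those of the list. Slc2a5, the fructose transporter known in brain as a microglial gene, had 0, 0.769 and 0 CPM in cortex CD51+ libraries and 51.3, 13.5 and 14.4 CPM in cortex CD51- libraries. In hippocampus Slc2a5 had 0, 0 and 1.01 CPM in CD51+ libraries and 24.1, 46.2 and 97.3 CPM in CD51- libraries, and its average log2 fold change was -6.91 ± 1.42 (edgeR adjusted p = 0.00144). Hk3, the hexokinase of myeloid cells, had 0, 0 and 1 count in cortex CD51+ libraries and none in hippocampus CD51+ libraries, against 448, 453 and 5 counts in cortex CD51- and 4, 139 and 197 counts in hippocampus CD51- libraries (edgeR adjusted p = 0.00297). Both were lower in CD51+ libraries, as the microglial markers were, and a link between them was not tested. Slc2a13, the myo-inositol transporter, was called higher (edgeR adjusted p = 0.0115) with 85, 32 and 3 counts in cortex CD51+ and 0, 32 and 2 counts in hippocampus CD51+ libraries, and no count in any CD51- library.

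Of 20 other glycogen genes tested, 5 were called higher and 1 lower on average, against 8.87% and 13.9% of all genes tested. Phkb, the beta subunit of phosphorylase kinase, averaged 278 ± 168 CPM in cortex CD51+ and 61.0 ± 23.4 CPM in cortex CD51- libraries (SD, n = 3 each). In hippocampus Phkb averaged 165 ± 60.8 CPM in CD51+ and 42.4 ± 23.5 CPM in CD51- libraries. Its log2 fold change was 2.08 ± 0.52 (edgeR adjusted p = 0.00722). Ppp1r3g, a glycogen-targeting subunit of protein phosphatase 1, had a log2 fold change of 4.70 ± 1.24 (edgeR adjusted p = 0.00990), and Nhlrc1 and Gyg were also called higher. Ppp1r3b, the targeting subunit known from liver, had a log2 fold change of -5.50 ± 1.60 (edgeR adjusted p = 0.0169). The targeting subunits Ppp1r3g and Ppp1r3b thus differed in direction.

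Of 17 other pyruvate and lactate genes tested, Me1 was called higher and Pdk1 and Slc16a7 lower on average, against 8.87% higher and 13.9% lower of all genes tested, shares near those of the list. Slc16a7 (MCT2), known as the lactate importer of neurons, had 11.1, 6.54 and 0.203 CPM in cortex CD51+ libraries and 29.7, 41.2 and 172 CPM in cortex CD51- libraries. In hippocampus Slc16a7 had 0.229, 1.07 and 2.68 CPM in CD51+ libraries and 37.9, 48.9 and 48.1 CPM in CD51- libraries, and the average log2 fold change was -4.41 ± 1.01 (edgeR adjusted p = 0.00347). No library of one class reached the range of the other in either region. Pdk1, a kinase of pyruvate dehydrogenase induced by hypoxia, had no count in cortex CD51+ libraries and 5, 7 and 10 counts in hippocampus CD51+ libraries, against 82, 289 and 249 counts in cortex CD51- and 58, 344 and 226 counts in hippocampus CD51- libraries (edgeR adjusted p = 0.00267). The kinase genes therefore differed in direction, with Pdk2 higher and Pdk1 lower. Me1, the cytosolic malic enzyme, was higher by 2.81 ± 0.93 on the log2 scale (edgeR adjusted p = 0.0322).

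Of 8 pentose phosphate genes tested, 0 were called higher (8.87% of all genes tested) and 1 lower (13.9%). It was Pgd, with a log2 fold change of -4.52 ± 1.15 (edgeR adjusted p = 0.00752). Of 14 regulators tested, 3 were called higher (Epas1, Ppargc1a and Prkag1) and 3 lower (Myc, Mlxipl and Prkab1), against 8.87% and 13.9% of all genes tested. Epas1, which encodes HIF-2 alpha, averaged 414 ± 241 CPM in cortex CD51+ and 55.0 ± 36.7 CPM in cortex CD51- libraries, and 553 ± 74.0 CPM in hippocampus CD51+ and 149 ± 42.3 CPM in hippocampus CD51- libraries (log2 fold change 2.40 ± 0.47, edgeR adjusted p = 0.000815). Myc had 0.0676 ± 0.117 CPM in cortex CD51+ and 58.8 ± 72.4 CPM in cortex CD51- libraries, and 0.771 ± 1.19 CPM in hippocampus CD51+ and 52.5 ± 39.9 CPM in hippocampus CD51- libraries (edgeR adjusted p = 0.000475). Myc was thus lower in CD51+ libraries, as Hk2 and Pfkfb3 were, and a link between them was not tested. Mlxipl (ChREBP), a glucose sensor, had a log2 fold change of -5.62 ± 1.27 (edgeR adjusted p = 0.00323), and Prkab1, a subunit of AMP-activated kinase, was also called lower (0.000338), with no count in hippocampus CD51+ libraries.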

How the data were processed

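RNA of sorted cells was sequenced, and the deposited table holds raw counts of read pairs per gene for 12 libraries. Per the file headers, pairs were counted over exons with featureCounts 2.0.4 against GENCODE vM25, unstranded, from primary alignments. The submitters' processing notes name STAR, mm10 and DESeq2 1.40.2. Symbols came from a name table that matched 55141 of 55401 identifiers. Genes were kept by filterByExpr (minimum count 10, minimum total 15) and tested with edgeR 4.0.16 in R 4.3.3, with TMM scaling, the quasi-likelihood test and Benjamini-Hochberg adjustment over 12613 genes. The fit had 4 group means and gave 5 contrasts: the CD51 difference in each region and averaged, the region difference, and the interaction. The biological coefficient of variation was 1.28, so only large differences pass. The code was tested on simulated data. Alternatives were DESeq2 1.42.0, limma-voom (limma 3.58.1), other scalings and filters, a replicate block, fits of 1 region, each library left out, and, chosen after seeing the data, mitochondrial genes left out. Copies were found with blastn 2.17.0, and figures drawn with matplotlib 3.10.9 in Python 3.11.15. The genes, lists and tests were chosen with earlier results of these data known. All 34 genes are named, and of each other list up to 4 tested genes with the smallest p in the averaged contrast, except for a result that is not reported here. Nhlrc1, Gyg, Ppargc1a and Prkag1 are named after their values were seen.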

Additional observations from a re-analysis of the deposited data

How the results depend on the processing

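Among the called results of the 34 genes, no log2 fold change changed sign under the alternatives tried. That statement does not cover the named genes of the other lists. Isozyme shares depend on the division by exon length: in raw counts the Pfkm share in hippocampus CD51+ libraries averaged 44.8%, against 75.4% per length. The mean raw share of Pfkp exceeded that of Pfkm in every group except cortex CD51-, which reverses the order per length. Over all genes, the cortex contrast called 637 higher and 791 lower, against 1457 and 1725 in DESeq2, 1079 higher in limma-voom and 408 higher with the cortex libraries only, where 5 pathway genes were called higher. The hippocampus contrast called 78 genes higher and 340 lower, against 370 and 1032 in DESeq2, 258 and 627 in limma-voom, 168 higher with its own libraries only and 531 lower with no filter. Of the pathway genes, hippocampus had 2 higher in DESeq2, 3 in limma-voom, 2 with upper-quartile scaling (and 0 lower) and 2 with its own libraries only. The region contrast called 20 genes higher and 4 lower, against 495 and 224 in DESeq2, 51 and 2 in limma-voom and 193 and 99 with no filter. The interaction called 0, against 197 higher and 303 lower in DESeq2, with 1 pathway gene lower, and 60 and 86 with no filter. The causes were not tested.

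With 1 library left out in turn, cortex called 372 to 668 genes higher and 476 to 853 lower, and 4 to 9 pathway genes higher and 0 to 2 lower. Hippocampus called 27 to 125 genes higher and 169 to 443 lower, and 0 to 2 pathway genes higher and 0 to 1 lower. The average called 838 to 1295 genes higher and 1241 to 1910 lower, and 8 to 14 pathway genes higher and 2 to 3 lower. The region contrast called 9 to 50 genes higher and 2 to 19 lower, and the interaction 0 to 12 higher and 0 to 30 lower, with 0 pathway genes in either. After the group mean was taken from each log CPM, same-numbered libraries of different groups correlated at -0.0478 to 0.0272 over 18 pairs. Differently numbered libraries correlated at -0.0439 to 0.0604 over 36 pairs. These values show no pairing by number, and with 3 libraries a group they cannot exclude a shared origin. A fit with the replicate number as a block called 14 pathway genes on average, 9 in cortex and 2 in hippocampus. The median log2 fold change of all genes moved with the scaling: on average it was -0.14, against 0.04 with upper-quartile scaling, 0.01 in limma-voom and -0.57 with no filter, in cortex -0.03 against 0.15 in limma-voom, and in hippocampus -0.22 against 0.01 with upper-quartile scaling. The median of the pathway genes tested was positive in each of these fits.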
